A study of Canis lupus familiaris with 2 samples.

Results

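Interferon-stimulated genes are the genes a cell transcribes after it senses interferon or foreign nucleic acid, and 9 of them were followed here by their gene symbols, *STAT2*, *IRF1*, *IRF7*, *IRF9*, *ISG15*, *MX1*, *MX2*, *IFIH1* and *DDX58*. All 9 symbols were present, each as 1 of the 23510 features in the tables. The measurements came from Madin–Darby canine kidney (MDCK) cells, an established dog epithelial line that forms a polarised sheet, and were made by RNA sequencing of 2 cultures, 1 under medium 2 cm high and 1 under medium 50 cm high, called the 2-cm and the 50-cm culture below. A taller column of medium loads the cells with more water pressure, and the question was which genes differ in expression under that load. In both cultures 40000 cells were plated on a culture insert in EMEM with fetal calf serum and grown for 3 days, and neither culture received interferon, virus or any other agent that the labels name. The values were FPKM, a number of fragments divided by transcript length and by library size, which allows levels of different genes to be set side by side. Each medium height is 1 culture of 1 cell line, so no value has replicates, no gene was tested, and every difference is described by its size alone.

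Type I and type III interferons bind receptors that activate the kinases JAK1 and TYK2, and these phosphorylate STAT transcription factors such as STAT2. STAT2 and IRF9 belong to ISGF3, the complex that binds the promoters of interferon-stimulated genes. The induced proteins include antiviral effectors such as ISG15 and the MX GTPases, and also the cytosolic RNA sensors and transcription factors through which a cell makes more interferon. Many of these genes have a basal level in epithelial cells without any infection, and MDCK cells are widely used to grow influenza virus.

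The features above 1 FPKM in both cultures numbered 11057, and their median log2 ratio of 50-cm over 2-cm FPKM was 0.01. The 5th and 95th percentiles of these ratios lay at -0.59 and 0.44. Library depth is not known, but the commonest ratio among features below 0.1 FPKM in both cultures, shared by 219 of 574, put the worth of a single read 9.77% higher at 50 cm. A read is worth more where the library size used for scaling is smaller. Dividing each culture by the worth of 1 read therefore takes out the adjustment for library size and leaves ratios of read numbers. It moved the median of all features to -0.12 and put 70.0% of them below a ratio of 1. Counts under this scaling are given where they shift by more than 10 percentage points, and a shift downward is built into it. Of 12 epithelial markers, 11 were above 1 FPKM in both cultures. The exception was *CDH16*, a kidney cadherin gene, at 1.96 FPKM at 2 cm and 0.676 FPKM at 50 cm (ratio 0.345). The summed FPKM of the 12 was 6804 at 2 cm and 6346 at 50 cm, with the keratin genes *KRT7*, *KRT8*, *KRT18* and *KRT19* the highest. Of 9 blood cell markers 8 had a feature, and their summed FPKM was 7.90 and 6.08, while *PTPRC*, *CD3E*, *MS4A1*, *ITGAM* and *LYZ* were listed at 0 in both cultures. The 8 stromal and endothelial markers summed to 0.630 and 0.422 FPKM, with *PECAM1*, *COL3A1* and *DCN* at 0 in both. The part of any such cells in the values below was not tested.

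Among the 9 genes, 8 were above 1 FPKM in both cultures, and 0 of these 8 differed by more than 2-fold between the medium heights. The background was low as well, with 0.389% of the 11057 features past 2-fold upward and 1.28% past 2-fold downward. At a threshold of 1.5-fold the count of members was still 0, against 2.13% of features upward and 5.06% downward. The log2 ratios of the 8 genes ran from -0.52 for *IRF7* to 0.33 for *ISG15*, with a median of -0.09. By absolute size the median log2 ratio was 0.26, compared with 0.17 over all features above 1 FPKM. The ratio was below 1 for 6 of the 8 genes and above 1 for 2, while 47.4% of all such features had a ratio below 1 and 52.6% a ratio above 1. Among these 8 genes the signs divided by role. All 4 transcription factors and both RNA sensors had lower FPKM at 50 cm, whereas *ISG15* and *MX1* had higher FPKM there, and the sign of *DDX58*, the smallest difference, turned under quantile normalization. The longer lists given below did not divide in this way for effectors and sensors. There 13 of 29 antiviral effectors were lower and 7 of 12 sensing and adaptor genes higher, while 7 of 9 STAT, IRF and related factors were lower. In bulk RNA, fewer cells that express a gene and less RNA of that gene per cell cannot be told apart.

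**Figure D1:**
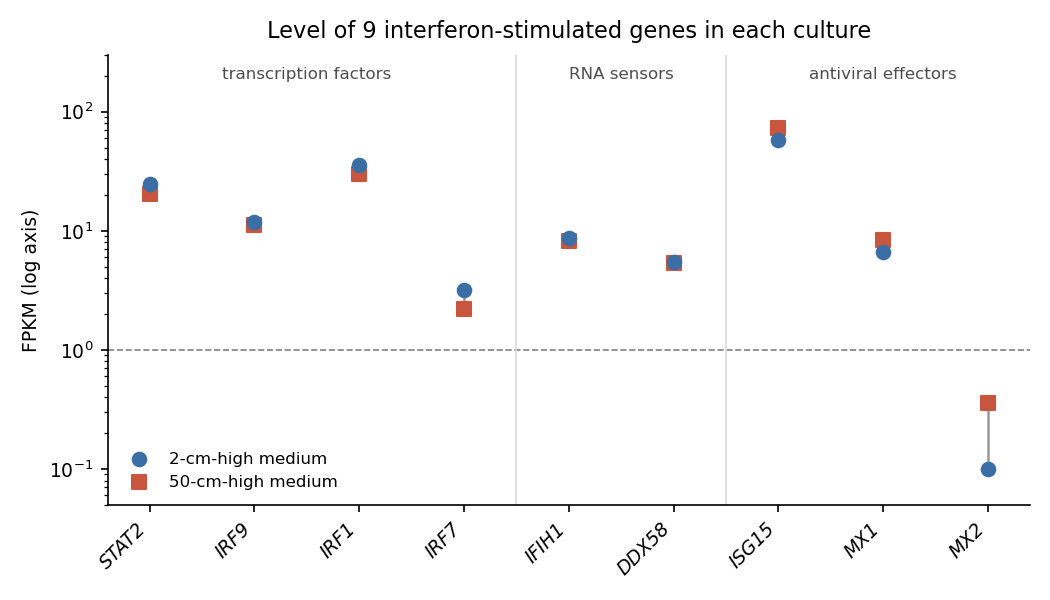
FPKM on a log axis of the 9 interferon-stimulated genes in the 2-cm culture (circles) and the 50-cm culture (squares), 1 culture each and so without error bars, grouped by role. The symbols lie close together for every gene above the dashed line at 1 FPKM, and only *MX2*, below that line, shows a wide gap.

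The transcription factors were led by *IRF1*. This factor binds interferon response elements, responds chiefly to interferon gamma, and also sustains basal expression of antiviral genes. Its level was 35.5 FPKM at 2 cm and 30.2 FPKM at 50 cm, a log2 ratio of -0.23. *STAT2*, the ISGF3 subunit that carries the main transactivation domain, was at 24.7 FPKM at 2 cm and 20.3 FPKM at 50 cm (ratio 0.819). For *IRF9*, the subunit of ISGF3 that recognises DNA, the values were 11.9 and 11.2 FPKM, a ratio of 0.943. All 3 were thus moderately abundant in both cultures, and their differences lay inside the 5th to 95th percentile range of the 500 features nearest to each in level, which for *STAT2* ran from -0.35 to 0.42 on the log2 scale. That range is a spread across genes in 1 pair of cultures and not an error of measurement.

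*IRF7*, the factor that amplifies the production of interferon alpha once it has been induced, was the least abundant of the 4 factors. It was at 3.18 FPKM at 2 cm and 2.22 FPKM at 50 cm, a ratio of 0.697 and a log2 ratio of -0.52. This was the largest difference among the 8 genes above 1 FPKM, and 6.34% of the 11057 features had a lower ratio. Features of similar level scattered more widely, with a 5th percentile of -0.99 and a 95th of 0.46, so *IRF7* lay well within them. A pseudocount of 1 brought its log2 ratio to -0.38 and quantile normalization brought it to -0.36.

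The other IRF genes were looked at after the values of the members were seen. Of 8 IRF genes, 6 were above 1 FPKM in both cultures, and all 6 had a ratio below 1, from 0.576 for *IRF5* to 0.943 for *IRF9*. Of all features above 1 FPKM, 47.4% had a ratio below 1. All 6 ratios stayed below 1 under quantile normalization. A pseudocount cannot move a ratio across 1. Recentring on the median of all features and scaling by the worth of 1 read only lower the ratios here. These alternatives were therefore no check on the sign. *IRF3*, the factor that is present before infection and starts the transcription of interferon beta, was the most abundant of these 8 at 122 FPKM at 2 cm and 95.8 FPKM at 50 cm. *IRF2*, an antagonist of IRF1, had 7.53 and 5.67 FPKM. *IRF8*, a factor best known from myeloid cells, was at 1.09 and 0.792 FPKM, and *IRF4*, a lymphoid factor, was listed at 0 in both.

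Both RNA sensors were nearly level between the cultures. *DDX58* encodes RIG-I, which recognises short double-stranded RNA with a 5′ triphosphate, and it was at 5.51 FPKM at 2 cm and 5.32 FPKM at 50 cm (ratio 0.965). *IFIH1* encodes MDA5, which recognises long double-stranded RNA, and it was at 8.76 and 8.15 FPKM (ratio 0.931). The *DDX58* difference, a log2 ratio of -0.05, was the smallest of the 9 genes, and under quantile normalization it was 0.05. Relative to each other the sensors hardly shifted, since *DDX58* stood at 0.630 of the *IFIH1* level in one culture and 0.653 in the other. A related gene, *DHX58*, encodes LGP2, which modulates both sensors, and it was at 2.35 FPKM at 2 cm and 2.83 FPKM at 50 cm (ratio 1.21).

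The effectors among the members had the opposite sign to the factors and sensors among them. *ISG15* encodes a ubiquitin-like protein that is conjugated to other proteins and is among the most strongly induced products of the interferon response. At 58.4 FPKM at 2 cm and 73.4 FPKM at 50 cm it was the most abundant of the 9 genes in both cultures, exceeding 88.6% and 90.6% of the features above 0, respectively. Its ratio was 1.26, a log2 ratio of 0.33, and 89.9% of the 11057 features had a lower ratio. *MX1* encodes a GTPase of the MX family, and its level was 6.69 FPKM at 2 cm and 8.33 FPKM at 50 cm, a ratio of 1.25. Although their levels differed by a factor of 8.73 in one culture and 8.80 in the other, *ISG15* and *MX1* had nearly the same ratio. Both stayed higher at 50 cm under every scaling tried, and both stayed under 1.5-fold and inside the range of features of similar level.

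*MX2*, the neighbour and paralog of *MX1*, was the only member with a ratio past 2-fold, and it was also the only one under the minimum of 1 FPKM. It was at 0.1001 FPKM at 2 cm and 0.357 FPKM at 50 cm, a ratio of 3.57 and a log2 ratio of 1.83. A small number of reads can give this ratio. To within 0.05% it equals that of 4 reads at 2 cm to 13 reads at 50 cm, which would make 1 read worth 0.0250 and 0.0275 FPKM on this gene, although multiples of these numbers give the same ratio. Of the 3249 features above 0 but not above 1 FPKM in both cultures, 12.6% were past 2-fold upward, and 70.4% had a ratio that whole numbers of up to 20 reads could produce. Among the 500 features nearest to *MX2* in level, log2 ratios ran from -2.09 at the 5th percentile to 1.72 at the 95th, just short of its own. With a pseudocount of 0.1 the log2 ratio of *MX2* was 1.19, and with a pseudocount of 1 it was 0.30. *MX2* lies next to *MX1* on the dog chromosome and resembles it in sequence, and how the mapping divided reads between them is not given in the sources used here.

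**Figure D2:**
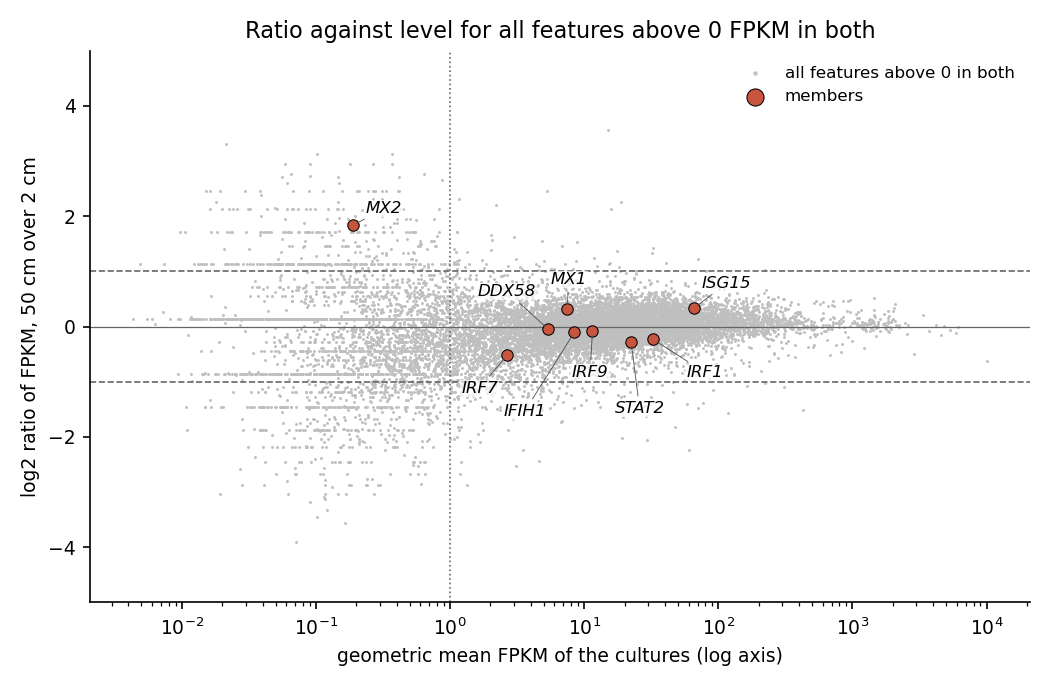
Log2 ratio of FPKM (50 cm over 2 cm) against the geometric mean FPKM of the cultures on a log axis, for the 14306 features above 0 in both cultures (grey) and the 9 members (red), with dashed lines at 2-fold and a dotted line at 1 FPKM. The 8 members right of the dotted line sit within the grey cloud around 0, and *MX2* sits left of it, where the ratios fall on horizontal rows set by small whole numbers of reads.

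The order of the levels was almost the same in both cultures. *ISG15*, *IRF1*, *STAT2* and *IRF9* took places 1 to 4, *DDX58*, *IRF7* and *MX2* took places 7 to 9, and only *IFIH1* and *MX1* exchanged places 5 and 6. Without replicates it cannot be said which neighbours in this order differ beyond their error. Ratios of 2 genes within a culture do not depend on how the libraries were scaled as a whole, and all 28 pairs of the 8 genes above 1 FPKM were computed. The shift of a pair is the quotient of the ratios of its 2 genes, so the order of the pairs restates the values above and adds no evidence. The 6 pairs that shifted most between the cultures each set *ISG15* or *MX1* against *IRF7*, *IRF1* or *STAT2*. *ISG15* stood at 18.4 times the *IRF7* level at 2 cm and at 33.1 times at 50 cm, a shift of 1.80-fold. Against *STAT2*, *ISG15* stood at 2.36 and 3.62 times (1.53-fold), and *MX1* at 0.270 and 0.411 times (1.52-fold). The pairs that shifted least were *ISG15* over *MX1* (1.01-fold) and *IRF9* over *IFIH1* (1.01-fold). In summed FPKM the 4 factors had 75.2 at 2 cm and 63.8 at 50 cm, and the 3 effectors had 65.2 and 82.0.

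The other genes of the interferon pathway were examined on 7 lists by role. Of 127 listed symbols, 111 were matched to a feature, 4 of them through the RefSeq gene ID in a LOC name, and 78 were above 1 FPKM in both cultures. Their median log2 ratio was -0.09, with 46 genes lower and 32 higher at 50 cm, or 62 lower and 16 higher when divided by the worth of 1 read. Of all features above 1 FPKM, 47.4% were lower, or 70.0% with that scaling, and these shares apply to each list below. None of these 78 was past 2-fold upward and 2 were past it downward, where the background of 0.389% and 1.28% applies, and under quantile normalization 1 was past it upward. Of the 9 listed STAT, IRF and related factors above 1 FPKM, 7 were lower and 2 higher, with a median log2 ratio of -0.38, and divided by the worth of 1 read or quantile normalized, 9 and 8 were lower. *IRF5*, at 3.27 and 1.88 FPKM (ratio 0.576), and *BATF2*, at 3.61 and 2.15 FPKM (ratio 0.596), were the 2 past 1.5-fold.

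**Figure D3:**
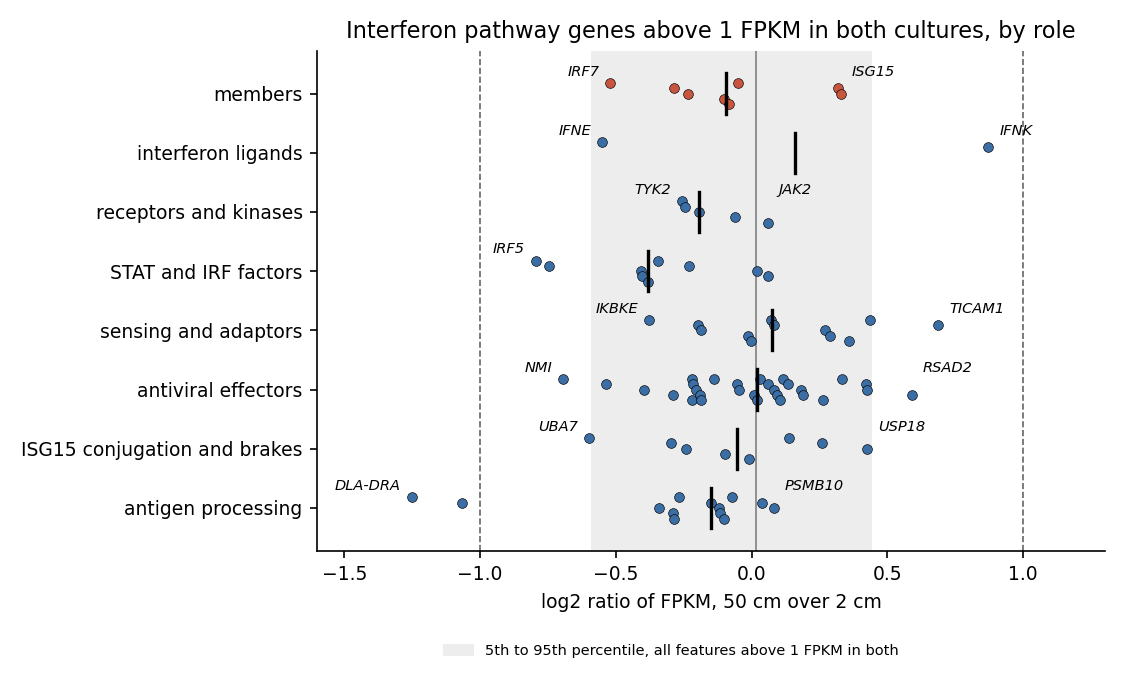
Log2 ratio of FPKM (50 cm over 2 cm) of the members (red) and of the 7 lists of other pathway genes (blue) above 1 FPKM in both cultures, each point 1 gene, with black bars at list medians, a grey band from the 5th to the 95th percentile of all features, a grey line at their median and dashed lines at 2-fold. The list of STAT and IRF factors has its median at -0.38, left of the grey line, antiviral effectors centre near it at 0.02, and *DLA-DRA* and *PSMB9* are the only points beyond a dashed line.

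Antiviral effectors other than the members were spread around 0. Of 43 such genes in the tables, 29 were above 1 FPKM in both cultures, 16 of them higher and 13 lower at 50 cm, and their median log2 ratio was 0.02. Divided by the worth of 1 read, 7 were higher and 22 lower, and the median was -0.12, where that of all features was also -0.12. *RSAD2*, which encodes viperin, had the highest ratio, at 9.97 FPKM at 2 cm and 15.0 FPKM at 50 cm (log2 ratio 0.59). *NMI*, which encodes a protein that binds STATs, had the lowest, at 50.2 and 31.0 FPKM (ratio 0.618). The oligoadenylate synthetases, which activate RNase L on double-stranded RNA, differed in sign. *OAS1* was at 39.9 and 50.2 FPKM, a ratio of 1.26 like that of *ISG15*, *OAS2* at 46.5 and 48.4 FPKM, and *OAS3* at 20.6 and 19.8 FPKM. The chemokine gene *CXCL10*, a classical target of interferon gamma, was at 2.15 and 2.37 FPKM, to within 0.05% the ratio of equal numbers of reads. *GBP5*, a guanylate-binding protein, was at 0.358 and 1.01 FPKM, and *CCL5*, another chemokine, at 0.241 and 0.927 FPKM, ratios given by 7 against 18 reads and by 2 against 7 reads. Going the other way were *SAMD9*, another effector, and, on other lists, *TMEM173* and *SOCS1*, all below 1 FPKM in both cultures. Their ratios were 0.274, 0.366 and 0.439, given by 4 against 1, 3 against 1 and 5 against 2 reads. Among pathway genes above 0 FPKM in both cultures, 2 were past 2-fold upward and 5 downward, including *DLA-DRA* and *PSMB9*, described below. Listed at 0 in both cultures were *IFI6*, *TRIM22*, *GBP1*, *GBP4* and *CXCL11*.

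The genes for ISG15 conjugation and removal differed in sign among themselves. *UBA7*, the enzyme that activates ISG15 for conjugation, was at 21.2 FPKM at 2 cm and 14.0 FPKM at 50 cm (ratio 0.660), the lowest ratio of its list. *UBE2L6*, the conjugating enzyme, was at 77.8 and 63.3 FPKM, and *HERC6*, a ligase of the same family as HERC5, at 25.1 and 27.6 FPKM. *USP18*, which removes ISG15 from proteins and restrains the type I receptor, was at 7.01 and 9.41 FPKM (1.34-fold), the highest of the list. Of the 8 genes for conjugation and feedback above 1 FPKM, 3 were higher and 5 lower, with a median log2 ratio of -0.05. Among sensing and adaptor genes 7 of 12 were higher and 5 lower (median log2 ratio 0.08), or 5 higher and 7 lower (-0.06) when divided by the worth of 1 read. They ran from *IKBKE*, a kinase that phosphorylates IRF3 and IRF7, at 20.4 and 15.7 FPKM (ratio 0.769), to *TICAM1*, the adaptor of the endosomal RNA receptor TLR3, at 6.40 and 10.3 FPKM (1.61-fold). *MAVS*, the mitochondrial adaptor that both RIG-I and MDA5 signal through, was at 29.5 and 25.8 FPKM (ratio 0.873).

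Genes of antigen processing, many of which interferon gamma induces, were mostly lower at 50 cm. Of 13 above 1 FPKM, 11 were lower and 2 higher, against 47.4% of all features lower, with a median log2 ratio of -0.15. All 13 were lower when divided by the worth of 1 read, a scaling that put 70.0% of all features below a ratio of 1. This list held both pathway genes past 2-fold. *DLA-DRA*, the alpha chain of the dog class II molecule DR, was at 5.30 FPKM at 2 cm and 2.23 FPKM at 50 cm (ratio 0.420). *PSMB9*, an immunoproteasome subunit, was at 10.7 and 5.12 FPKM (ratio 0.477). With a pseudocount of 1 neither was past 2-fold. *CIITA*, the regulator that class II genes depend on, was at 1.74 and 0.967 FPKM (ratio 0.556), under the minimum at 50 cm. Class I genes differed less, with *B2M*, the light chain, at 269 and 250 FPKM, *DLA88*, a heavy chain, at 27.8 and 28.5 FPKM, and *TAP1*, a subunit of the peptide transporter, at 10.5 and 8.60 FPKM. The highest ratio of the list was that of *PSMB10*, at 20.7 and 21.9 FPKM. The class I heavy chain genes *DLA88*, *DLA-12* and *DLA-64* resemble each other closely, so their separate values are uncertain.

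Interferon genes themselves were scarce, and 6 of the 12 listed were matched to a feature. *IFNB1*, *IFNA7*, *IFNG* and *IFNL1* were listed at 0 in both cultures. *IFNE*, an interferon that epithelia of the female reproductive tract make constitutively, was at 4.49 FPKM at 2 cm and 3.06 FPKM at 50 cm (ratio 0.682). *IFNK*, the interferon of keratinocytes, was at 1.16 and 2.13 FPKM (1.83-fold), which is the ratio of 3 reads to 5. Multiples of such small numbers give the same ratios. Of the kinases, *JAK1* was at 60.7 and 58.2 FPKM, *TYK2* at 16.8 and 14.1 FPKM (ratio 0.837) and *JAK2* at 14.1 and 14.7 FPKM (ratio 1.04). *IFNGR1*, a chain of the interferon gamma receptor, was at 25.1 and 21.95 FPKM, and *IFNLR1*, the specific chain of the type III receptor, at 3.21 and 2.71 FPKM. Of the 5 receptor and kinase genes above 1 FPKM, 4 were lower and 1 higher, against 47.4% of all features lower. All 5 were lower when divided by the worth of 1 read, against 70.0% of all features.

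The remaining receptor chains stood apart. *IFNAR1* and *IFNAR2*, the type I receptor, were listed at 0 in both cultures, *IL10RB* was at 0.0464 and 0.0509 FPKM, and *IFNGR2* at 0.105 and 0.115 FPKM, the ratio of 1 read to 1. A further feature, with the RefSeq gene ID of *IFNAR2* in a LOC name, was at 0 FPKM at 2 cm and 0.0198 FPKM at 50 cm. In the RefSeq table for the dog assembly UU_Cfam_GSD_1.0 these 4 genes are neighbours, and the features around them were low as well. Between *PAXBP1*, at 11.5 FPKM in both cultures, and *RCAN1*, at 72.6 and 66.4 FPKM, the table has 21 protein-coding genes, of which 18 had a feature here. Of these 18, 11 were listed at 0 in both cultures, against 32.9% of all features, and 14 did not exceed 1 FPKM in either culture. The highest value among them was 3.16 FPKM, for *DONSON*. The genes at 0 included *SON*, which encodes a splicing cofactor, *ITSN1* and the ATP synthase subunit gene *ATP5O*, which are broadly used by cells. A listed 0 for the receptor genes thus does not show that their RNA was absent, and why the stretch is low was not tested.

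**Figure D4:**
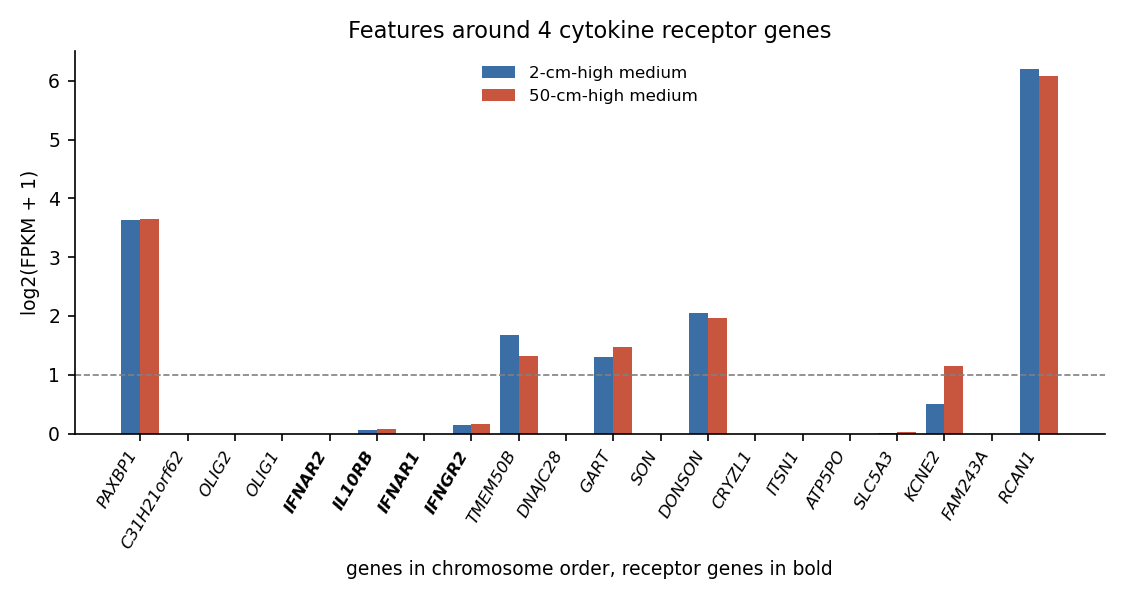
Level of the features from *PAXBP1* to *RCAN1* as log2(FPKM + 1), in gene order on the RefSeq assembly UU_Cfam_GSD_1.0, for the 2-cm culture (left bars) and the 50-cm culture (right bars), with a dashed line at 1 FPKM and the receptor genes in bold. The 18 features between the flanking genes stay at or below 3.16 FPKM in both cultures, and *IFNAR1* and *IFNAR2* have no bar.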

How the data were processed

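MDCK cells under 2-cm-high and 50-cm-high medium were measured by stranded, single-end mRNA sequencing of 75-base reads, 1 library per height. The authors mapped reads to CanFam3.1 with TopHat2 2.0.13, Bowtie2 2.2.3 and SAMtools 0.1.19 and deposited FPKM per gene made with Cuffnorm 2.2.1. The gene annotation, the Cuffnorm scaling and the library depth are not given in the sources used here. FPKM ratios were taken as 50 cm over 2 cm with no pseudocount where both values exceeded 1 FPKM, and were called past 2-fold. With 1 library per group no test was run. The spread beside a gene is that of the 500 features closest to it in log2 FPKM averaged over the cultures. Small whole numbers of reads were sought up to 20 per culture, extended from 10 after the data were seen, with a tolerance of 0.05%. Groups were taken from the labels. Calculations were run in Python 3.11.15 (pandas 2.3.3, numpy 2.4.6) and tested on simulated data, and plots were drawn with matplotlib 3.10.9.

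Members and lists were chosen with earlier results of these data known. The rule for naming took all members and, in each list, genes past 2-fold, the highest and lowest ratio, and genes at 0 where 5 or fewer, and some genes it covers are not reported here. Other genes, the set of IRF genes and the receptor stretch were chosen after their values were seen. With 2 libraries no genes of like pattern could be sought. The RefSeq table of UU_Cfam_GSD_1.0 served only for names and gene order. Alternatives were FPKM minimums, pseudocounts, 3 scalings, a 1.5-fold threshold and, added after the data were seen, matching by symbol only. Of the scalings, the worth of 1 read takes out the adjustment for library size.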

Additional observations from a re-analysis of the deposited data

How the results depend on the processing

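The count of members past 2-fold was 0 under every minimum, pseudocount, scaling and threshold tried except minimums of above 0 and above 0.1 FPKM in both cultures, which each gave 1, *MX2*. The median log2 ratio of the members was -0.07 to -0.11 under the other alternatives and -0.23 when divided by the worth of 1 read, where the median of all features was -0.12. The pathway lists had 2 genes past 2-fold, and 7 with a minimum above 0, 6 with one above 0.1, 3 with one above 1 in at least one culture, 1 with one above 5, 3 under quantile normalization, 0 with a pseudocount of 1 and 9 at a threshold of 1.5-fold. In both settings that gave 3, 1 was upward. Their median log2 ratio was -0.22 when divided by the worth of 1 read. Matching by symbol only, an alternative added after the data were seen, left 2. Over the members' ratios, 44 of 45 alternatives kept the sign, and the exception was *DDX58* under quantile normalization. This count says little, because a pseudocount cannot turn a sign and recentring and the worth of 1 read only lower a ratio. For members with a ratio below 1, quantile normalization was the only alternative that could turn the sign. No library could be left out and no paired analysis was possible because each height has 1 library.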

Other observations

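Relatives of the members that are on none of the lists had these values. *OASL-2*, an oligoadenylate synthetase-like gene, was at 8.68 FPKM at 2 cm and 5.67 FPKM at 50 cm (ratio 0.653). Of the STAT genes that interferons use less, *STAT4* was at 5.55 and 4.36 FPKM, *STAT5A* at 12.9 and 11.0 FPKM, *STAT5B* at 18.8 and 17.5 FPKM and *STAT6* at 55.5 and 55.0 FPKM, so all 4 had ratios below 1, the last by a log2 ratio of -0.01. *IRF2BP2*, which encodes a partner of IRF2, was at 14.5 and 10.9 FPKM, whereas *IRF2BP1* was at 7.46 and 8.49 FPKM.

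The nearest chromosome neighbours of the members in the RefSeq order, other than members, included 9 above 1 FPKM in both cultures. Beside *ISG15*, *HES4* was at 3.14 FPKM at 2 cm and 4.88 FPKM at 50 cm (1.55-fold) and *AGRN* at 100.4 and 107 FPKM. Beside *IRF9*, *REC8* was at 2.75 and 1.89 FPKM (ratio 0.686) and *RNF31* at 15.4 FPKM in both. *GCA*, next to *IFIH1*, was at 2.52 and 1.90 FPKM (ratio 0.754), and *RAD50*, next to *IRF1*, at 26.5 and 26.7 FPKM. *PHRF1*, next to *IRF7*, was at 18.0 and 18.9 FPKM. Beside *DDX58*, *ACO1* was at 85.7 and 83.6 FPKM and *TOPORS* at 12.7 and 13.2 FPKM.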
